A study of Mus musculus with 16 samples.

Results

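The comparison described here is that of kidney cortex from mice with an induced deletion of Degs1 (iGKO) against cortex from their fl/fl littermates after a sham operation, without ischaemia. It rests on 8 of the 16 RNA-seq libraries of the study, 4 a side, picked by the genotype and operation in their labels and by no measured value. All the mice were male, on a C57Bl/6J background, and homozygous for a floxed Degs1 allele. The iGKO mice carried in addition Rosa26-CreERT2, a tamoxifen-activated Cre recombinase expressed from the Rosa26 locus throughout the body. Both genotypes received tamoxifen, in 5 daily doses of 3 mg when 9 weeks old, and were operated at 12 weeks under ketamine and xylazine with buprenorphine and bupivacaine. In the sham operation the kidneys were exposed but the vessels were not clamped, and by the study's design text the tissue was taken 24 h later. Since the labels name the Cre allele for the iGKO mice only, the deletion and the recombinase itself cannot be told apart. The deletion was not limited to the kidney, so effects that begin in kidney cells and in other organs cannot be told apart either. The other 8 libraries came from mice of both genotypes in which the vessels of both kidneys were clamped for 28 min before reperfusion (ischaemia-reperfusion injury, IRI), and they are used only to set the sham differences beside. Libraries are named by group and replicate number, as in iGKO sham 4. Nothing in the labels says what the numbers mark or that the replicates were separate animals, so the p-values measure the spread between these samples.

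Dihydroceramide desaturase, the product of Degs1, places a double bond in the sphingoid backbone of dihydroceramide and so makes ceramide, which completes the de novo pathway in the endoplasmic reticulum. Ceramide is the branch point from which cells make sphingomyelin, glycosphingolipids and, through ceramidases and sphingosine kinases, sphingosine 1-phosphate. In the kidney most of the cortex is proximal tubule, a segment that relies on fatty acid oxidation in mitochondria, and ceramides are known for effects on mitochondrial function. The question of the comparison is which transcripts differ between the genotypes before any ischaemic injury.

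Total counts were 13281659 to 16263764 per fl/fl sham library and 13627274 to 18816343 per iGKO sham library. Markers of the labelled tissue were present: the proximal tubule phosphate transporter Slc34a1 was at 3919 to 5464 CPM (counts brought to a common library size with TMM factors), the endocytic receptor Lrp2 (megalin) at 6621 to 8405 CPM, and the thick ascending limb protein Umod at 1569 to 2400 CPM. In 4 exact two-sided permutation tests between the genotypes of total counts, the number of genes detected, the mitochondrial share and how much the 10 top genes took, no p fell below 0.314 (adjusted 0.857). A single library stood apart. In iGKO sham 4 mitochondrially encoded genes took 0.443% of counts, against 4.43% to 6.48% in the other 7 libraries, and 17.5% of genes lay more than 2-fold from the median of the others, against 1.75% to 3.86%. The library was kept in the main comparison, and results that rest on it are also given without it. Fat markers differed between libraries as well: 12 adipocyte markers summed to 614, 135.7, 1509 and 414 CPM in fl/fl sham 1 to 4 and to 328, 189, 466 and 193 CPM in iGKO sham 1 to 4. Markers of adrenal and of skeletal muscle stayed at or below 4.81 and 2.04 summed CPM in every library.

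**Figure D1:**
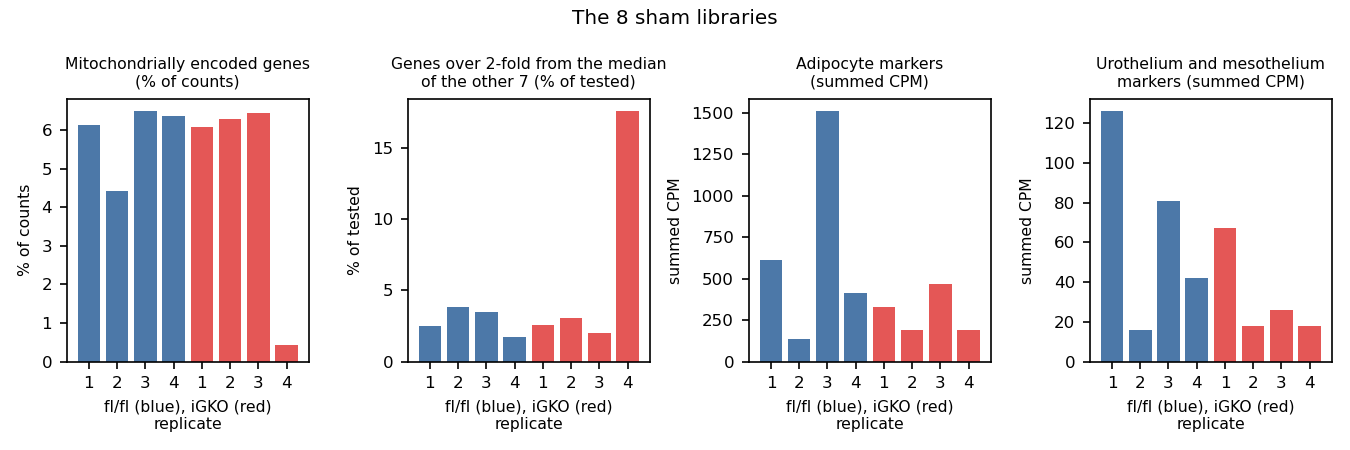
Bars for each of the 8 sham libraries, blue for fl/fl and red for iGKO, from an axis starting at 0: mitochondrially encoded genes (% of counts), genes over 2-fold from the median of the other libraries (% of tested), and summed CPM of adipocyte markers and of urothelium and mesothelium markers. The mitochondrial share of iGKO sham 4 is 0.443% of counts while the other 7 libraries lie between 4.43% and 6.48%, and the summed adipocyte markers are highest in fl/fl sham 3 (1509 CPM).

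The targeted gene was lower in every iGKO library. Degs1 was at 109.1, 80.73, 97.44 and 103.0 CPM in fl/fl sham 1 to 4 and at 63.05, 49.16, 69.04 and 39.27 CPM in iGKO sham 1 to 4. The groups did not overlap, and the iGKO mean was 56.5% of the fl/fl mean. The log2 difference (iGKO minus fl/fl, with its SE after ±, here and below) was -0.82 ± 0.18 with 4 libraries a side. An exact two-sided permutation test of the 8 values gave p = 0.0286, the smallest that 4 against 4 allows. In edgeR's quasi-likelihood test across all genes the unadjusted p was 0.00116 and the adjusted p 0.999. The means were 97.6 ± 12.2 CPM and 55.1 ± 13.5 CPM (SD, n = 4). Without iGKO sham 4 the level was 61.9% of fl/fl and the log2 difference -0.69. Over the 21 alternative settings the log2 difference ranged from -0.95 to -0.69 and the adjusted p from 0.00316 to 1.00. Reads from exons outside the floxed part still count toward Degs1, so the remaining level does not measure how much of the gene was left intact.

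Degs2, Gt(ROSA)26Sor and Esr1 overlapped between the genotypes when all 8 libraries were used. Degs2, the second dihydroceramide desaturase, which also hydroxylates to form phytoceramide, was at 17.2, 36.4, 27.9 and 15.4 CPM in fl/fl sham and at 18.6, 18.7, 27.2 and 24.6 CPM in iGKO sham (log2 -0.12 ± 0.27). Gt(ROSA)26Sor, the noncoding gene at the site of the Cre insertion, was at 6.33, 5.36, 7.52 and 6.55 CPM in fl/fl and at 9.42, 7.80, 8.49 and 5.86 CPM in iGKO (log2 0.29 ± 0.20). The groups overlapped only through iGKO sham 4, and without it the log2 difference was 0.41. Esr1, the oestrogen receptor, of which a mutated ligand-binding domain is part of CreERT2, was at 16.0 to 39.0 CPM in fl/fl and at 17.0 to 27.5 CPM in iGKO. Of 79 tested genes within 5 Mb of Gt(ROSA)26Sor, 47 stood higher and 32 lower with a median log2 difference of 0.02, and 3 had an unadjusted p under 0.05 (2.1% over all genes). Without iGKO sham 4 it was 6 (5.95% over all genes). Of 12 genes within 1 Mb of Degs1, 6 stood higher and 6 lower, with none at an unadjusted p under 0.05.

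Few genes separated the genotypes beyond the spread between libraries. With all 8 libraries edgeR tested 16962 genes and called 0 (0.0%) at an adjusted p under 0.05. At an unadjusted p under 0.05 it counted 356 genes (2.1%), 156 higher in iGKO (0.92%) and 200 lower (1.18%). On the same libraries DESeq2 called 3 genes (0.0177%): Spns2, Apoh and Gpt2, all higher in iGKO. limma voom with quality weights per sample called only Apoh (0.0059%). Without iGKO sham 4 edgeR again called 0 of 17171 genes (0.0%), with 1021 at an unadjusted p under 0.05 (5.95%), 425 higher (2.48%) and 596 lower (3.47%), and its smallest adjusted p was 0.0582, for Apoh. On those 7 libraries DESeq2 called 34 genes (0.198% of the 17171 in the fit), 17 in each direction. It gave an adjusted p to 12508 genes only, so the others could not be called. On the same libraries limma voom called 1 (0.00582%), Apoh. The settings without iGKO sham 4 in DESeq2 and limma were chosen after seeing the data.

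The genes named next were those with the smallest p of each sign whose 4 iGKO values all lay outside the 4 fl/fl values, with a mean of at least 1 CPM. 172 genes (1.01%) lay wholly above and 143 (0.843%) wholly below fl/fl, 315 in all (1.86%). Since the rule picked genes by these values, the values describe the genes and support nothing further.

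Spns2, which exports sphingosine 1-phosphate from cells, headed the genes that stood higher in iGKO. Its levels were 65.76, 76.12, 59.86 and 76.0 CPM in fl/fl sham and 134.9, 109.9, 104.4 and 127.9 CPM in iGKO sham. Each iGKO library lay well above each fl/fl library, iGKO sham 4 included, and the means were 1.72-fold apart (log2 0.78 ± 0.13). DESeq2 gave an adjusted p of 0.000636 on all 8 libraries and edgeR 0.999, and over the alternatives the adjusted p ran from 7.15e-05 to 1.00 while the log2 difference stayed between 0.71 and 0.84. Spns2 was the single member of 16 tested genes of ceramidases and sphingosine 1-phosphate whose groups did not overlap upward (1.01% over all genes).

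Apoh, beta-2-glycoprotein I, a plasma protein that binds phospholipids, had the largest fold among the higher genes. It was at 9.23, 6.36, 8.34 and 10.4 CPM in fl/fl sham and at 23.5, 23.5, 22.4 and 13.8 CPM in iGKO sham. The 3 iGKO libraries other than iGKO sham 4 were nearly equal, and iGKO sham 4 lay between them and fl/fl. The log2 difference was 1.28 ± 0.22, and 1.43 without iGKO sham 4. Adjusted p-values ran from 7.82e-12 (DESeq2 without iGKO sham 4) to 1.00 over the alternatives.

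Apoh is made mainly in liver, and the liver transcripts on the marker list did not move with it in 1 direction: albumin (Alb) was at 3.49 to 14.1 CPM in fl/fl and 7.68 to 32.8 CPM in iGKO, highest in iGKO sham 4, whereas Ttr (transthyretin) stood lower in iGKO. The part of liver transcripts in the Apoh difference was not tested.

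Gpt2, mitochondrial alanine aminotransferase, which links alanine to pyruvate and glutamate, was at 110.1, 113.6, 92.1 and 126.9 CPM in fl/fl sham and at 196.5, 170.2, 154.3 and 168.1 CPM in iGKO sham. The lowest iGKO library lay above the highest fl/fl library (log2 0.64 ± 0.13). DESeq2 gave an adjusted p of 0.046 on all 8 libraries, within a range of 0.00155 to 1.00 over the alternatives.

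The other higher genes named by the rule included growth genes. Ccnd1, cyclin D1, which drives entry into the cell cycle, was at 135, 142, 190 and 166 CPM in fl/fl and at 222, 251, 234 and 270 CPM in iGKO (log2 0.63 ± 0.14). The means were 1.54-fold apart for Ccnd1, and no library crossed over. Fbl, fibrillarin, which methylates ribosomal RNA in the nucleolus, was at 24.3 to 26.9 CPM in fl/fl and 31.2 to 43.0 CPM in iGKO (log2 0.50 ± 0.13). Ctsl, the lysosomal protease cathepsin L, was at 355 to 413 CPM in fl/fl and 457 to 574 CPM in iGKO (log2 0.42 ± 0.12). Zfp459, a zinc finger gene, was low in all libraries, at 0.55 to 1.00 CPM in fl/fl and 1.16 to 2.10 CPM in iGKO (log2 1.16 ± 0.32). All of these had unadjusted p-values under 0.05 and did not pass in edgeR after adjustment.

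**Figure D2:**
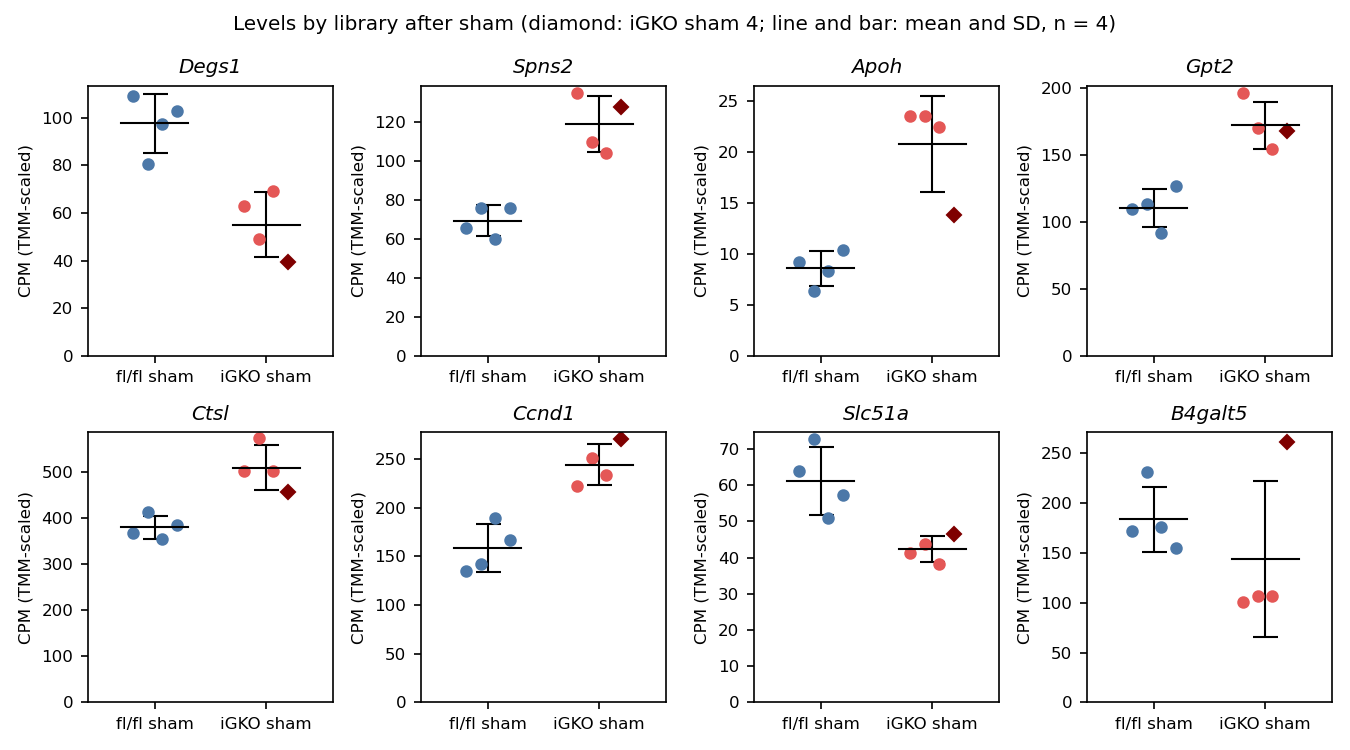
Levels in CPM (TMM-scaled, linear axis from 0) of 8 named genes in the sham libraries, 1 point a library, with iGKO sham 4 as a diamond and the mean and SD of each group as a line and bar. Spns2 and Gpt2 separate the genotypes in all libraries, Apoh is at 13.8 CPM in iGKO sham 4 against 22.4 to 23.5 CPM in the other iGKO libraries, and B4galt5 is at 261 CPM in iGKO sham 4 against 101 to 106 CPM in the others.

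Among the genes that stood lower, after Degs1, Klkb1 had the smallest p. It encodes plasma prekallikrein and was low, at 1.98, 2.37, 2.48 and 2.19 CPM in fl/fl sham and at 1.23, 0.96, 1.07 and 0.659 CPM in iGKO sham (log2 -1.20 ± 0.27). Slc51a, a subunit of the basolateral organic solute and bile acid transporter, was at 63.9, 72.8, 51.0 and 57.2 CPM in fl/fl and at 41.2, 43.8, 38.1 and 46.6 CPM in iGKO (log2 -0.53 ± 0.14). The genotypes lay apart in both genes without overlap, but the gap in Slc51a was narrow beside the spread of fl/fl. Megf6, which encodes a protein with EGF-like repeats, was at 4.73, 2.37, 4.62 and 2.66 CPM in fl/fl and at 1.52, 0.72, 1.02 and 2.17 CPM in iGKO (log2 -1.41 ± 0.39). Cldn16, the claudin of the thick ascending limb needed for magnesium and calcium uptake, was at 4.86 to 7.85 CPM in fl/fl and at 3.23 to 4.57 CPM in iGKO (log2 -0.77 ± 0.23). Adora1, the adenosine A1 receptor of tubule and afferent arteriole, was at 5.11, 4.18, 9.52 and 4.51 CPM in fl/fl and at 2.25, 2.82, 3.39 and 3.10 CPM in iGKO (log2 -1.01 ± 0.30). Its fl/fl mean was raised by fl/fl sham 3. Sntb1, a syntrophin of the dystrophin complex, and Wfdc1, a secreted protein of the whey acidic family, had log2 differences of -0.63 ± 0.18 and -0.86 ± 0.25. None of these passed in edgeR after adjustment.

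Leaving out iGKO sham 4 brought other genes forward, and these were named by the same rule applied to the other 7 libraries, where 646 genes (3.76%) lay wholly above and 567 (3.3%) wholly below fl/fl, 1213 in all (7.06%). Aldh1a1, which makes retinoic acid from retinaldehyde, was at 26.5, 21.3, 19.5 and 22.7 CPM in fl/fl sham and at 52.6, 44.4 and 36.4 CPM in iGKO sham 1 to 3, but at 12.7 CPM in iGKO sham 4. Its log2 difference was 0.70 ± 0.35 with that library and 0.98 without it, where DESeq2 gave an adjusted p of 5.47e-06 (range over the alternatives 5.47e-06 to 1.00). Stc1, a secreted regulator of calcium and phosphate, was at 3.35 to 5.10 CPM in fl/fl, at 8.55, 8.34 and 14.0 CPM in iGKO sham 1 to 3 and at 2.83 CPM in iGKO sham 4 (log2 1.33 without it). In both genes iGKO sham 4 lay below all fl/fl libraries.

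S100g, calbindin-D9k of distal nephron, was at 131 to 152 CPM in fl/fl and 188 to 221 CPM in iGKO sham 1 to 3 (log2 0.54), with iGKO sham 4 at 130.2 CPM. Npl, the lyase that breaks down sialic acid, was at 23.0 to 34.4 CPM in fl/fl and 43.6 to 44.8 CPM in iGKO sham 1 to 3 (log2 0.67), with iGKO sham 4 at 33.8 CPM. Pappa, a protease that frees insulin-like growth factor from its binding proteins, was at 16.9 to 25.5 CPM in fl/fl and 31.4 to 44.2 CPM in iGKO sham 1 to 3 (log2 0.89), with iGKO sham 4 at 19.8 CPM. In these 3 genes iGKO sham 4 fell among or below the fl/fl values, so the difference rests on the other 3 iGKO libraries.

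B4galt5, which makes lactosylceramide from glucosylceramide, was a sphingolipid gene whose difference depended on that library. It was at 172, 231, 176 and 155 CPM in fl/fl sham, at 101, 106 and 106 CPM in iGKO sham 1 to 3 and at 261 CPM in iGKO sham 4. The log2 difference was -0.36 ± 0.30 with iGKO sham 4 and -0.81 without it, where DESeq2 gave an adjusted p of 1.42e-05 (range over the alternatives 1.42e-05 to 1.00). Ttr, the carrier of thyroxine and of retinol-binding protein, was at 71.2, 100.6, 62.8 and 53.3 CPM in fl/fl, at 29.0, 26.7 and 32.6 CPM in iGKO sham 1 to 3 and at 54.1 CPM in iGKO sham 4 (log2 -1.29 without it). Cit, citron kinase, which acts in cytokinesis, was at 51.8 to 64.8 CPM in fl/fl, 30.5 to 33.2 CPM in iGKO sham 1 to 3 and 58.3 CPM in iGKO sham 4 (log2 -0.80 without it). Slc4a1, the chloride-bicarbonate exchanger of acid-secreting intercalated cells and red cells, was at 46.3 to 67.1 CPM in fl/fl, 31.7 to 37.9 CPM in iGKO sham 1 to 3 and 68.7 CPM in iGKO sham 4 (log2 -0.73 without it). Each of these 4 genes was lower in 3 iGKO libraries and within or above the fl/fl range in the other. The remaining genes named there were Rnf24, a ubiquitin ligase-like membrane protein (log2 -1.22), Vill, an actin-binding villin-like protein (log2 -0.46), and Glyctk, glycerate kinase (log2 -0.52), all without iGKO sham 4.

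A pair of libraries stood out in Vnn1, pantetheinase, which was at 97.4, 154.9, 96.7 and 89.0 CPM in fl/fl and at 152.8, 152.3, 151.4 and 91.5 CPM in iGKO. There fl/fl sham 2 was at the level of the 3 high iGKO libraries and iGKO sham 4 at the level of the 3 low fl/fl libraries. In a setting added after seeing the data, which left out both of those libraries and kept 3 a side, edgeR called 7 genes (0.0414%). Among them Apoh (log2 1.31) and Vnn1 (log2 0.69) were higher in iGKO. Ttr (log2 -1.08), B4galt5 (log2 -0.69), Cit (log2 -0.83) and Aspg, an asparaginase (log2 -0.60), were lower. These 2 libraries had the lowest mitochondrial shares of the 8 (4.43% and 0.443%). The pair was picked for low fat and mesothelium markers (135.7 and 193 CPM summed over adipocyte markers), but iGKO sham 2 was as low (189 CPM) and was kept. The choice was made with the values of all genes known, so the calls describe the other 6 libraries and are no independent support.

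Beside Degs1, Spns2 and Glb1, no member of the 4 sphingolipid lists had an unadjusted p under 0.05 in edgeR with all 8 libraries. The log2 difference over all 16962 tested genes had a median of 0.01, and that is the value to set beside each list. Of 17 genes of ceramide de novo synthesis 14 were tested, 3 stood higher and 11 lower, and the median was -0.07. Without iGKO sham 4, 8 stood higher and 6 lower with a median of 0.05. edgeR called none of them and Degs1 alone had an unadjusted p under 0.05.

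Sptlc1 and Sptlc2 encode the subunits of serine palmitoyltransferase, the first step of the pathway. Sptlc1 averaged 52.3 ± 2.3 CPM in the fl/fl libraries and 53.8 ± 1.16 CPM in the iGKO libraries (SD, n = 4), with a log2 difference of 0.04 ± 0.10 (SE). Sptlc2 was at 96.0 to 113.8 CPM in fl/fl and 108.4 to 115.9 CPM in iGKO (log2 0.10 ± 0.10). The spread within each genotype covered the difference between them. Kdsr, which reduces ketosphinganine, was at 29.9 to 33.5 CPM in fl/fl and 22.1 to 40.8 CPM in iGKO. The ceramide synthases Cers2 and Cers6, which prefer very long and long acyl chains in that order, behaved alike. Cers2 was at 173, 137, 155 and 166 CPM in fl/fl and 167, 192, 178 and 85.6 CPM in iGKO. Cers6 was at 180, 151, 169 and 178 CPM in fl/fl and 180, 182, 202 and 99.2 CPM in iGKO. In Cers2 and Cers6 iGKO sham 4 lay far below the other 7 libraries, whose genotypes overlapped. Ormdl3, a regulator that holds serine palmitoyltransferase in check, was at 14.8 to 25.9 CPM in fl/fl and 13.4 to 19.96 CPM in iGKO (log2 -0.26 ± 0.20).

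Of 11 genes of sphingomyelin metabolism and ceramide transfer 10 were tested, with 4 higher, 6 lower and a median of -0.08. Sgms2, the sphingomyelin synthase of the plasma membrane, was at 145.5 to 165.8 CPM in fl/fl and at 124.4, 145.7, 148.6 and 90.9 CPM in iGKO (log2 -0.30 ± 0.16). Smpd3, the neutral sphingomyelinase, was at 6.79, 0.436, 4.62 and 4.30 CPM in fl/fl and at 5.07, 0.360, 1.83 and 0.461 CPM in iGKO (log2 -1.08 ± 0.85), low in libraries of both genotypes. Of 18 genes of ceramidases and sphingosine 1-phosphate 16 were tested, with 7 higher, 9 lower and a median of -0.06. Beside Spns2, Sphk1, a sphingosine kinase, was at 2.75 to 5.05 CPM in fl/fl and 3.98 to 7.68 CPM in iGKO (log2 0.48 ± 0.29), and the lyase Sgpl1, which ends the pathway, at 56.7 to 70.2 CPM in fl/fl and 53.7 to 75.1 CPM in iGKO (log2 0.06 ± 0.14). The receptors S1pr1, S1pr2 and S1pr3 had log2 differences of -0.28, 0.31 and -0.26, each within 2 of its SE. All 20 glycosphingolipid genes were tested, with 8 higher, 12 lower and a median of -0.04. Glb1, lysosomal beta-galactosidase, was the 1 member without overlap (0.843% wholly below fl/fl over all genes). It was at 163, 151, 154 and 156 CPM in fl/fl and 118, 130, 134 and 145 CPM in iGKO (log2 -0.24 ± 0.10). Ugcg, which makes glucosylceramide, was at 19.6 to 23.8 CPM in fl/fl and 11.7 to 22.7 CPM in iGKO. None of these lists held a gene called by edgeR.

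Genes of cholesterol and fatty acid synthesis stood lower in iGKO more often than higher. All 31 were tested, 6 stood higher and 25 lower, and the median log2 difference was -0.17, against 0.01 over all genes. Without iGKO sham 4, 2 stood higher and 29 lower (median -0.27), and with 1 library left out in turn the median lay between -0.27 and -0.08. No member was called by edgeR and none separated the genotypes without overlap. Idi1 and Insig1 were the members with an unadjusted p under 0.05 in edgeR, both lower (1.18% lower over all genes).

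Idi1, which isomerises isopentenyl diphosphate in the mevalonate pathway, was at 31.2, 18.6, 39.0 and 29.6 CPM in fl/fl sham and at 13.8, 13.9, 24.0 and 10.9 CPM in iGKO sham (log2 -0.91 ± 0.28, unadjusted p = 0.00811 in edgeR, all genes tested). The genotypes overlapped only between fl/fl sham 2 and iGKO sham 3. Insig1, which retains the sterol sensor complex in the endoplasmic reticulum and is itself a target of it, was at 104, 39.6, 81.9 and 100.5 CPM in fl/fl and at 47.5, 54.0, 59.6 and 53.6 CPM in iGKO (log2 -0.60 ± 0.26). Here fl/fl sham 2 was the lowest of all 8 libraries. Cyp51, a lanosterol demethylase, was at 213.6, 144.7, 310.6 and 306.2 CPM in fl/fl and at 123.0, 121.2, 232.2 and 180.3 CPM in iGKO (log2 -0.57 ± 0.28). Hmgcs1, the cytosolic synthase that begins the pathway, was at 765, 616, 590 and 663 CPM in fl/fl and at 468, 601, 653 and 441 CPM in iGKO (log2 -0.28 ± 0.16).

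For the fatty acid genes of the list the largest values came from fl/fl sham 3. Fasn, fatty acid synthase, was at 346, 584, 1375 and 403 CPM in fl/fl and at 287, 414, 395 and 397 CPM in iGKO (log2 -0.86 ± 0.39), and -0.25 without fl/fl sham 3. Scd1, stearoyl-CoA desaturase, was at 297, 63.8, 1398 and 149.9 CPM in fl/fl and at 96.7, 30.9, 395 and 44.0 CPM in iGKO (log2 -1.75 ± 1.01). Acaca and Elovl6, acetyl-CoA carboxylase and a fatty acid elongase, also peaked in fl/fl sham 3, at 221.4 and 56.0 CPM. That library had the highest summed adipocyte markers (1509 CPM), and Adipoq, the fat hormone adiponectin, was there at 30.1 CPM against 0.0623 to 16.4 CPM in the other 7. All 9 tested adipocyte markers stood lower in iGKO (median -1.33, and -0.62 without fl/fl sham 3). The part of fat in the fatty acid genes was not tested. In bulk tissue, fewer cells of a type and less RNA per cell cannot be told apart.

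The promoters of Idi1 and Hmgcs1 are shown because these genes of 1 pathway differ in whether the window holds the core of the sterol regulatory element, the site bound by the SREBP factors that induce the mevalonate genes. The windows are the 250 bases before the start of the gene on the plus strand of RefSeq GRCm38.p6, chr13:8885356-8885605 for Idi1 and chr13:119690101-119690350 for Hmgcs1. Capitals mark CACCCCAC and its reverse complement GTGGGGTG, taken as the element's core, and CCAAT and its reverse complement ATTGG, the box bound by NF-Y, which acts with SREBP.
Idi1: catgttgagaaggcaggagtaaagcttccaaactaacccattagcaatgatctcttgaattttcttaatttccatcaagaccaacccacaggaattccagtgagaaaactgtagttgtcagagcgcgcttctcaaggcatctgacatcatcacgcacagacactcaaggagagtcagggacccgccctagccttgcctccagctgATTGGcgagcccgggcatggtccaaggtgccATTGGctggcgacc
Hmgcs1: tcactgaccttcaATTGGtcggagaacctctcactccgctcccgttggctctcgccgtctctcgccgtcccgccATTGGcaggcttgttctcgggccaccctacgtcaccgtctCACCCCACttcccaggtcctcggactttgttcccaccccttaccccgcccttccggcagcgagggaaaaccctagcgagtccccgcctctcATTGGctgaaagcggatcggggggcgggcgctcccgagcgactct
The Idi1 window held 2 CCAAT boxes and no match to the core, and the Hmgcs1 window 3 CCAAT boxes and 1 core. Of 21 list genes with a window in the reference, 17 held a CCAAT box in at least 1 window, and 1, Hmgcs1, held the core. Of all 32851 windows 33.8% held a CCAAT box and 2.58% the core. These shares count windows and the list counts genes, so they are not in the same unit. In the Hmgcs1 window, which holds both motifs, the core and the CCAAT boxes do not overlap. A match is a description of letters only.

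Markers of tubular injury stood mostly higher in iGKO kidneys after sham. Of 26 markers 25 were tested, 23 stood higher and 2 lower, and the median log2 difference was 0.49, against 0.01 over all genes. Without iGKO sham 4, 22 stood higher and 3 lower (median 0.48), and with each library left out in turn the median lay between 0.35 and 0.61. The lowest of these came without iGKO sham 2, where 20 stood higher and 5 lower. Summed over the list, levels were 1121, 1179, 1207 and 1909 CPM in fl/fl sham 1 to 4. They were 1727, 3009, 1432 and 1958 CPM in iGKO sham 1 to 4, so that fl/fl sham 4 lay above iGKO sham 1 and iGKO sham 3. edgeR called none and no member separated the genotypes without overlap. 6 members had an unadjusted p under 0.05, all higher, against 0.92% higher at that limit over all genes.

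Havcr1 (KIM-1), the surface marker of injured proximal tubule, was at 8.24, 3.99, 9.93 and 24.1 CPM in fl/fl sham and at 18.8, 121.8, 12.7 and 21.2 CPM in iGKO sham (log2 1.92 ± 0.77). 1 library, iGKO sham 2, held most of the difference, and without it the log2 value was 0.60. Krt20, a keratin of injured tubule, was at 0.687, 0.249, 2.07 and 4.64 CPM in fl/fl and at 1.09, 33.4, 1.24 and 3.23 CPM in iGKO (log2 2.35 ± 1.16), and at -0.05 without iGKO sham 2. Lcn2, the secreted marker NGAL, was at 4.12, 4.43, 17.0 and 14.5 CPM in fl/fl and at 19.0, 19.8, 9.68 and 13.1 CPM in iGKO (log2 0.61 ± 0.46). The genotypes overlapped in all 3 of these markers after sham.

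Other members of the list were higher in more libraries. Myc, the growth transcription factor, was at 7.93, 7.17, 6.00 and 8.81 CPM in fl/fl and at 15.4, 20.9, 8.76 and 13.6 CPM in iGKO (log2 0.97 ± 0.26, unadjusted p = 0.0035 in edgeR, all genes tested). iGKO sham 3 met the fl/fl range and the other 3 iGKO libraries lay above it. Clu, the secreted chaperone clusterin, was at 190, 244, 169 and 240 CPM in fl/fl and at 243, 320, 243 and 321 CPM in iGKO (log2 0.42 ± 0.16). Krt18, a keratin of simple epithelia, was at 9.15 to 12.6 CPM in fl/fl and 11.5 to 19.8 CPM in iGKO (log2 0.49 ± 0.19). Plaur, the urokinase receptor, was at 2.31 to 4.88 CPM in fl/fl and 4.46 to 8.28 CPM in iGKO (log2 0.72 ± 0.28). Fgg, a fibrinogen chain that injured tubule also makes, was at 13.0, 21.2, 22.1 and 58.3 CPM in fl/fl and at 57.4, 139, 45.8 and 21.8 CPM in iGKO (log2 1.21 ± 0.57). Each of these overlapped in at least 1 library, and none passed after adjustment.

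**Figure D3:**
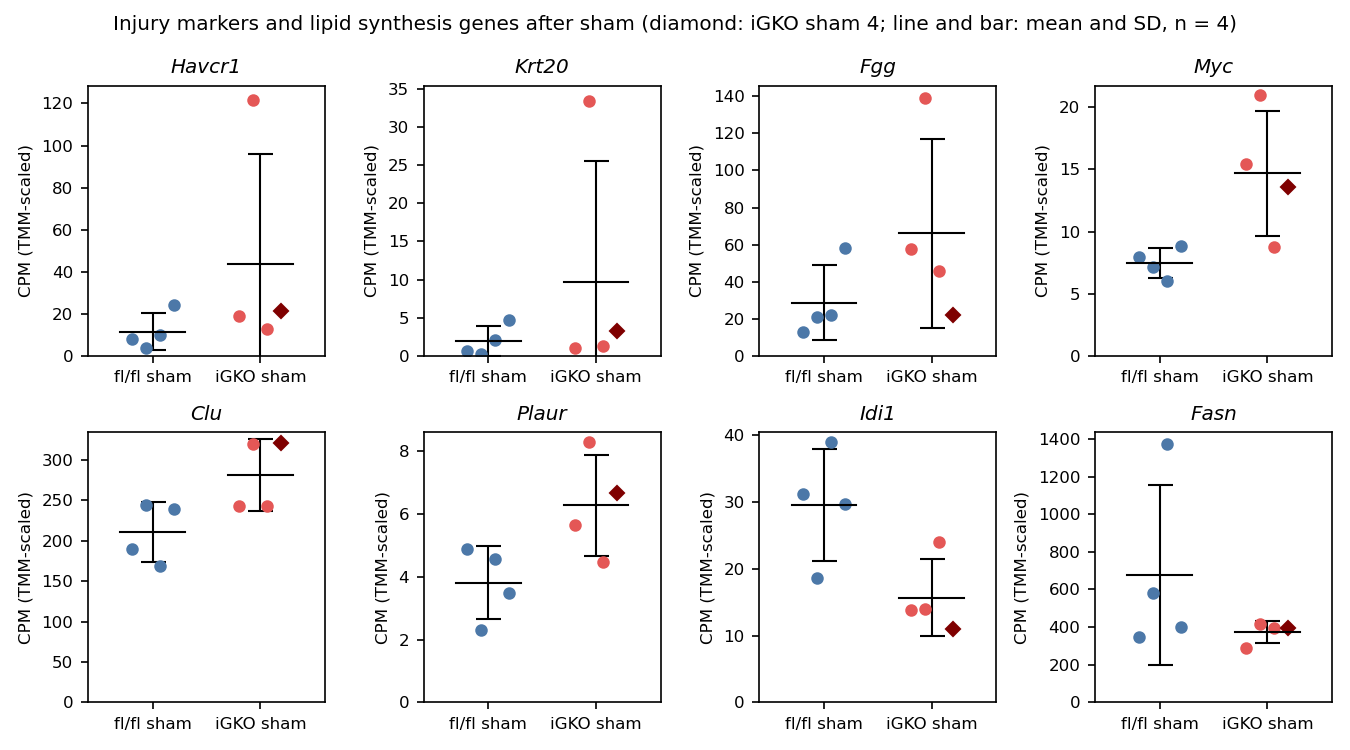
Levels in CPM (TMM-scaled, linear axis from 0, where SD bars that would pass below it end) of 6 injury markers and of Idi1 and Fasn in the 8 sham libraries, 1 point a library, with iGKO sham 4 as a diamond and the mean and SD of each group as a line and bar. Havcr1 at 121.8 CPM and Krt20 at 33.4 CPM are high in iGKO sham 2 alone, Myc is at 13.6 CPM or more in 3 of 4 iGKO libraries and at most 8.81 CPM in fl/fl, and Fasn is at 1375 CPM in fl/fl sham 3.

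Cell cycle and stress genes showed smaller differences. Of 24 cell cycle genes 22 were tested, with 15 higher, 7 lower and a median of 0.22, which was -0.02 without iGKO sham 2, 0.08 without fl/fl sham 2 and 0.37 without iGKO sham 3. Single members ranged from -0.85 to 0.74. At an unadjusted p under 0.05 in edgeR, 3 stood higher and 1 lower (0.92% and 1.18% over all genes). Mcm3, part of the helicase that opens replication origins, was at 10.3, 7.67, 8.00 and 7.72 CPM in fl/fl and at 12.8, 18.8, 10.0 and 12.2 CPM in iGKO (log2 0.68). Only iGKO sham 3 met the fl/fl range, through fl/fl sham 1. Among 16 heat shock genes the median was 0.04, and 2 lay wholly above fl/fl (1.01% over all genes). Hspb1, the small heat shock protein HSP27, was 1 of these. It alone of the list had an unadjusted p under 0.05 in edgeR (0.92% higher over all genes). Its levels were 7.93, 8.79, 8.14 and 7.85 CPM in fl/fl and 16.7, 13.9, 10.6 and 9.36 CPM in iGKO (log2 0.63 ± 0.20). Medians were 0.09 for the integrated stress response, 0.11 for endoplasmic reticulum chaperones, 0.08 for NRF2 and antioxidant genes, 0.02 for the p53 response and 0.15 for immediate early genes. These depended on single libraries: the NRF2 median was -0.03 without iGKO sham 1, that of the chaperones 0.02 without iGKO sham 3, that of the p53 response -0.03 without iGKO sham 2 and that of immediate early genes -0.02 without iGKO sham 4, while the integrated stress response lay between 0.05 and 0.18 with 1 library left out. Nfil3, a repressor linked to the circadian clock, was at 2.48 to 3.66 CPM in fl/fl and 3.76 to 7.85 CPM in iGKO (log2 0.78 ± 0.28), while the 19 clock genes as a list had a median of -0.03.

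Nuclear genes of the respiratory chain did not differ between the genotypes after sham by more than a few hundredths in the median. Of 36 complex I subunits 16 stood higher and 20 lower (median -0.02), the 24 subunits of complexes II, III and IV had a median of 0.00, and so had the 15 subunits of ATP synthase. The cristae and MICOS genes had a median of 0.08 and the tricarboxylic acid cycle 0.02. No member of these lists had an unadjusted p under 0.05 in edgeR. Of the 13 mitochondrially encoded mRNAs 1 stood higher and 12 lower (median -0.33), but without iGKO sham 4, whose mitochondrial share was 0.443%, 8 stood higher and 5 lower (median 0.07). The member that lay wholly below fl/fl in either case was mt-Nd6, the complex I subunit encoded on the other strand, at 435, 761, 466 and 441 CPM in fl/fl and 388, 314, 386 and 196 CPM in iGKO (log2 -0.71 ± 0.25, and -0.53 without iGKO sham 4). Over all genes 0.843% lay wholly below fl/fl, and 3.3% without iGKO sham 4.

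Of 35 genes of fatty acid oxidation 26 stood higher and 9 lower (median 0.11, and 0.05 without fl/fl sham 4). Without fl/fl sham 2 and iGKO sham 4 it was 27 higher and 8 lower (median 0.23). Cyp4a14, a fatty acid omega-hydroxylase induced by PPAR-alpha, was at 318, 1284, 589 and 791 CPM in fl/fl and at 1204, 1473, 1274 and 596 CPM in iGKO. Ehhadh, the peroxisomal bifunctional enzyme, was at 526, 1034, 501 and 460 CPM in fl/fl and at 807, 739, 902 and 762 CPM in iGKO. In both genes fl/fl sham 2 was at or above the level of most iGKO libraries, and no member of the list had an unadjusted p under 0.05 when all 8 libraries were used. Without iGKO sham 4, 24 stood higher and 11 lower (median 0.12). There 4 were higher at an unadjusted p under 0.05 in edgeR (2.48% over all genes) and 2 lay wholly above fl/fl (3.76% over all genes).

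Among cell types, medians of the nephron segments lay on both sides of 0. All 28 proximal tubule genes were tested, with 9 higher, 19 lower and a median of -0.09. Of 11 thick ascending limb genes 3 stood higher and 8 lower (median -0.16), and without iGKO sham 4 it was 2 and 9 (median -0.16), with 3 wholly below fl/fl (3.3% over all genes) and 3 lower at an unadjusted p under 0.05 (3.47% over all genes). Of 11 genes of the distal convoluted and connecting tubule 2 stood higher and 9 lower (median -0.10), but 7 and 4 without iGKO sham 4 (median 0.03). Medians were 0.09 in principal cells (10 genes, 8 higher), -0.03 in podocytes (11 genes) and 0.00 in endothelium (15 genes). All 10 intercalated cell genes stood lower (median -0.23). Slc26a4, pendrin, the chloride-bicarbonate exchanger of base-secreting intercalated cells, was at 63.2 to 89.7 CPM in fl/fl and 63.7 to 73.0 CPM in iGKO (log2 -0.23 ± 0.13), and Insrr, an alkali sensor of the same cells, at 39.2 to 54.0 CPM and 28.0 to 54.8 CPM (log2 -0.25 ± 0.20). None of the 10 had an unadjusted p under 0.05 with all libraries, while 4 had one without iGKO sham 4, all lower (3.47% over all genes), where 9 stood lower. Egf, made by the distal nephron, was at 1414, 1564, 1603 and 1459 CPM in fl/fl and 1119, 1150, 1285 and 1457 CPM in iGKO (log2 -0.27 ± 0.13), with iGKO sham 4 alone in the fl/fl range.

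Stromal and immune genes varied with single libraries. Of 16 fibroblast and mural genes 7 stood higher and 9 lower (median -0.13), and 2 and 14 without iGKO sham 4 (median -0.26), while the median was -0.04 without fl/fl sham 3. Itga8, an integrin of mesangial and mural cells, was the member without overlap (0.843% wholly below fl/fl over all genes). It was at 16.1, 13.8, 23.8 and 17.6 CPM in fl/fl and 12.8, 10.7, 12.7 and 12.8 CPM in iGKO (log2 -0.54 ± 0.18). Apoe, a lipid carrier made by macrophages among other cells, was at 170, 170, 147 and 180 CPM in fl/fl and at 212, 206, 204 and 289 CPM in iGKO (log2 0.45 ± 0.14), while the 15 macrophage genes as a list had a median of 0.06. Neutrophil markers were few and low: 6 of 10 were tested, 5 stood higher (median 0.66, and -0.08 without iGKO sham 1), their summed level was 6.80 to 15.6 CPM in fl/fl and 4.09 to 23.4 CPM in iGKO, and the defining Ly6g was at 0 in 7 of 8 libraries. The 7 tested lymphocyte genes and the 7 tested erythrocyte genes all stood lower (medians -0.48 and -0.67). With 1 library left out the erythrocyte median lay between -0.96 and -0.15, the last without fl/fl sham 1, and the lymphocyte median between -0.73, without iGKO sham 3, and -0.40. The summed erythrocyte level was 135.0 to 547.9 CPM in fl/fl and 155.2 to 260.4 CPM in iGKO, with fl/fl sham 1 and 2 highest, and that of lymphocyte genes was 24.1 to 85.8 CPM and 10.1 to 48.7 CPM. Antigen presentation genes stood higher in 13 of 16 (median 0.25), but in 4 of 16 without iGKO sham 4 (median -0.13). Of 10 genes known to respond to androgen in male kidney 2 stood higher and 8 lower (median -0.30). Among them the organic anion transporter Slco1a1 was at 325, 193, 202 and 181 CPM in fl/fl and 147, 93.0, 199 and 80.6 CPM in iGKO (log2 -0.79 ± 0.30).

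**Figure D4:**
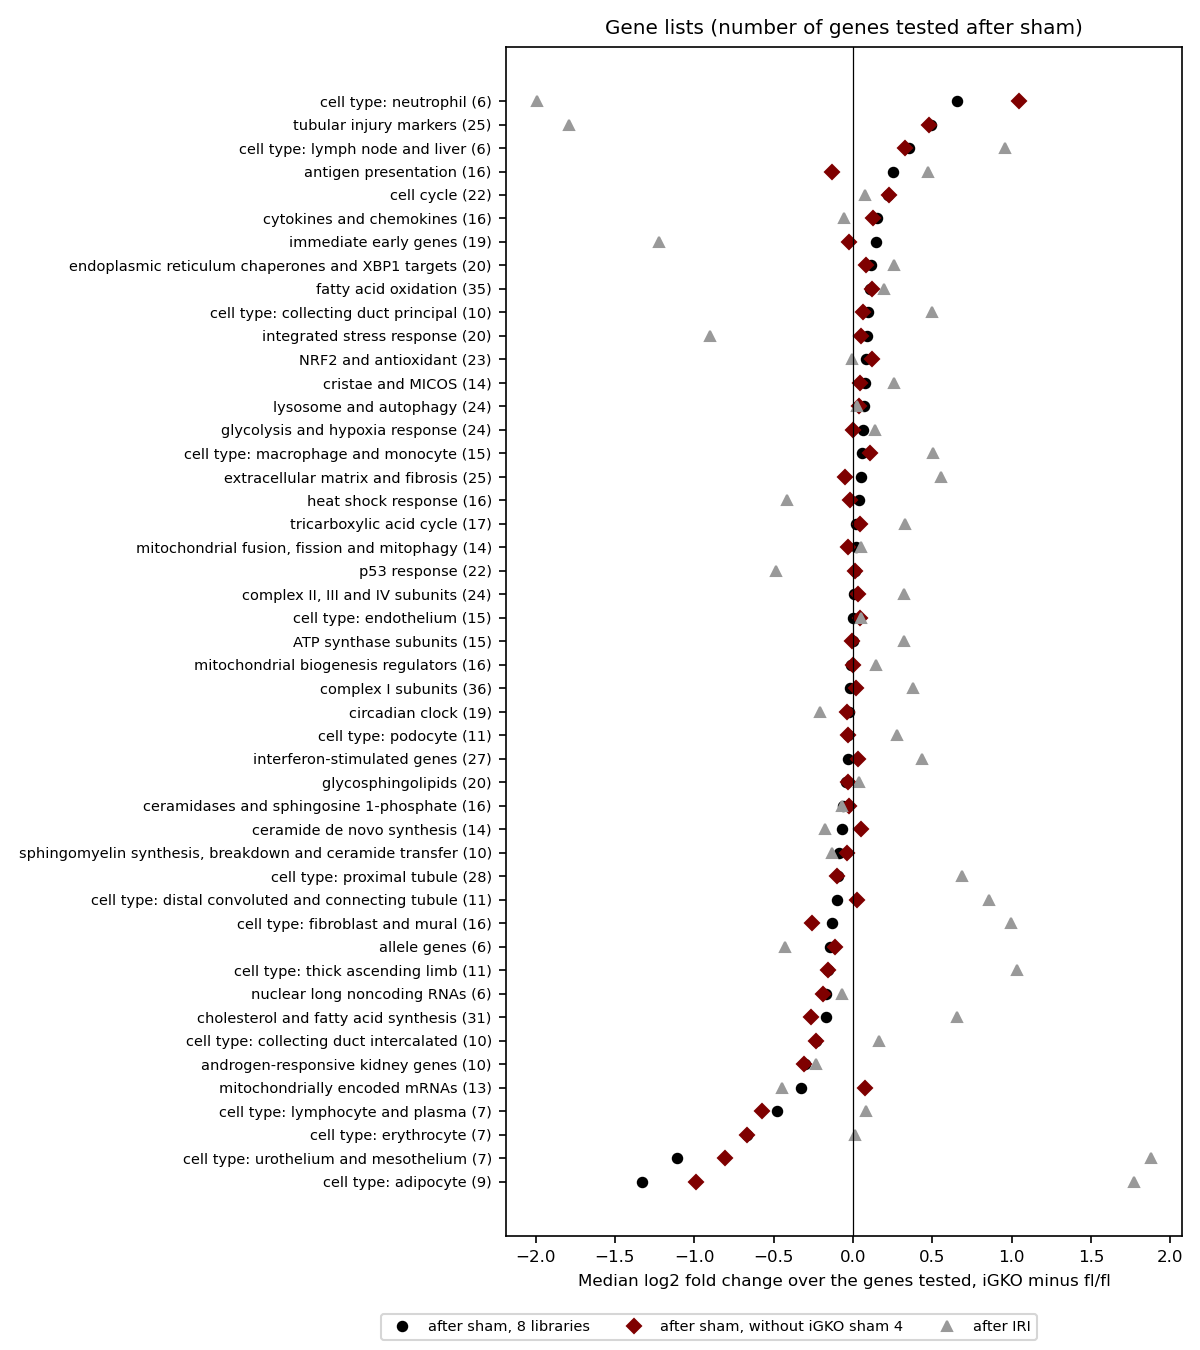
Median log2 difference (iGKO minus fl/fl) over the tested genes of each list, with circles for sham with all 8 libraries, diamonds for sham without iGKO sham 4 and triangles for IRI. After sham tubular injury markers (0.49) and lipid synthesis (-0.17) keep their side without that library, antigen presentation goes from 0.25 to -0.13 and the mitochondrially encoded mRNAs from -0.33 to 0.07.

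The same genotypes were compared after IRI in 8 libraries that share none with the sham comparison. edgeR called 0 of 17016 genes there (0.0%), with 2193 at an unadjusted p under 0.05. There 495 genes (2.91%) lay wholly above and 433 (2.54%) wholly below fl/fl. The genotype by operation interaction, which tests whether the genotype difference depends on the operation, called 0 of 17972 genes in edgeR (0.0%), with 2033 at an unadjusted p under 0.05 and a smallest adjusted p of 0.244. DESeq2, which gave an adjusted p to 17243 genes, called 112 (0.623% of the 17972 in the fit). Of these, 31 had a more positive genotype difference after IRI and 81 a more negative one. Leaving out fl/fl IRI 1 took edgeR's count to 776 (4.22%), 381 more positive and 395 more negative, and leaving out iGKO sham 4 took it to 0 (0.0%).

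Degs1 was lower after both operations. After IRI it was at 90.5, 117.8, 137.4 and 114.9 CPM in fl/fl IRI and 60.8, 57.4, 46.6 and 61.7 CPM in iGKO IRI (log2 -1.02), and the adjusted interaction p was 0.754 in edgeR. Spns2 was at 153.4, 246.6, 139.3 and 128.0 CPM in fl/fl IRI and 235.5, 114.5, 136.6 and 198.4 CPM in iGKO IRI, so that its genotype difference was 0.04 on the log2 scale there (interaction adjusted p = 0.395 in edgeR). All 4 fl/fl IRI libraries lay above the 4 fl/fl sham libraries in CPM, but the 2 sets were scaled separately and not tested against each other. After IRI the genotypes overlapped in Spns2. Apoh was at 9.34, 7.07, 7.60 and 7.17 CPM in fl/fl IRI and 24.4, 12.4, 8.62 and 13.7 CPM in iGKO IRI (log2 0.92). The 2 genotypes overlapped there only between fl/fl IRI 1 and iGKO IRI 3. B4galt5 was lower in iGKO after IRI as well (log2 -0.68). Of the 8 higher and 8 lower genes named on all sham libraries, 4 and 2 had the same sign after IRI. Of those named without iGKO sham 4 it was 7 of 8 and 3 of 8.

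Tubular injury markers and lipid synthesis genes lay on opposite sides in the 2 comparisons, each with its own libraries. Tubular injury markers had a median of 0.49 after sham and -1.79 after IRI, where 4 of 25 stood higher in iGKO. Havcr1 was at -3.47 on the log2 scale after IRI, Clu at -1.91, Myc at -1.55 and Hspb1 at -1.36. Without fl/fl IRI 1 the interaction called 15 of the 25 markers, against 4.22% of all genes in that setting, and none with all libraries. Lipid synthesis genes had a median of -0.17 after sham and 0.66 after IRI, where 30 of 31 stood higher. The respiratory chain lists lay near 0 after sham and above 0 after IRI. Complex I subunits had medians of -0.02 after sham and 0.38 after IRI. Complexes II, III and IV had 0.005 and 0.32, and ATP synthase -0.001 and 0.32.

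**Figure D5:**
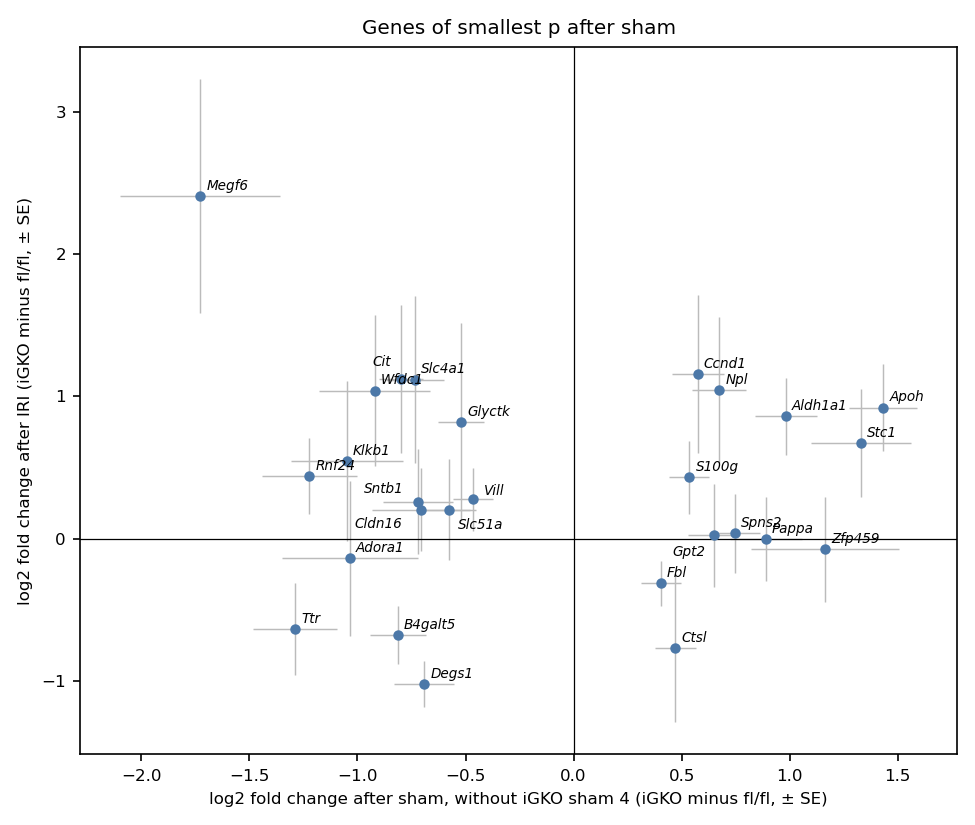
Log2 difference (iGKO minus fl/fl, ± SE) of genes named by smallest p, after sham without iGKO sham 4 on the horizontal axis and after IRI on the vertical axis. Degs1, B4galt5, Ttr and Adora1 are below 0 on both axes, Apoh, Aldh1a1, Npl and Stc1 are above 0 on both, and Megf6 is below 0 after sham and at 2.41 after IRI.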

How the data were processed

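RNA was measured in kidney cortex by stranded, rRNA-depleted sequencing of total RNA, per the labels. The deposited values were raw read counts per gene, whole numbers without normalization, for 56980 gene identifiers. Per the submitters' processing notes the build was GRCm39 (mm39) and the tools included STAR 2.7.9a, featureCounts 1.6.3, DESeq2 1.36.0 and cutadapt 1.16, beside quality reports by MultiQC, Picard and FastQC. The annotation release and strand setting are not given in the sources used here. Reads on overlapping or near-identical genes may thus be split in ways not known here. Symbols and neighbouring genes were taken by identifier from an annotation of GRCm38, which matched 52073 identifiers.

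The 8 sham libraries were fitted with edgeR 4.0.16 in R 4.3.3 (filterByExpr by group, TMM, quasi-likelihood test, two-sided), which left 16962 genes. Adjusted p-values are Benjamini-Hochberg values over every gene in the fit, and 0.05 was the limit for a call. The SE is the log2 difference divided by the root of F. DESeq2 1.42.0 and limma 3.58.1 were run as alternatives, beside other scalings, filters, a replicate block and leaving out each library. The script was tested on simulated data. Named genes were the 8 of each sign with the smallest p, a mean of at least 1 CPM and no overlap between groups, with all libraries and again without iGKO sham 4, with members of 49 gene lists. Some of the genes so named or called are not reported here. Aspg and Nfil3 were added after their values were seen. The members and lists were chosen with earlier results of these data known, and so support nothing by themselves. All samples carry 1 batch label.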

Additional observations from a re-analysis of the deposited data

Results flagged for a closer look

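Many of the genes examined were named by their values in the sham libraries, some only where iGKO sham 4 was left out. The chance rate of the 95% limit of Dixon's test, about 1 of 20 groups, therefore cannot be set against the count found. In 22 of 108 groups of 4 values examined, 1 library lay far from the other 3 of its genotype by that limit. In iGKO sham 4 these were the mitochondrial share (0.443% of counts), the share of the 10 most abundant genes (8.24%) and the levels of Apoh (13.8 CPM), Npl (33.8 CPM), Cit (58.3 CPM), B4galt5 (261 CPM), Slc4a1 (68.7 CPM), Vill (188 CPM), Glyctk (389 CPM), Vnn1 (91.5 CPM), Apoe (289 CPM) and Aspg (170.3 CPM). In fl/fl sham 2 they were the mitochondrial share (4.43%) and the levels of Vnn1 (154.9 CPM), mt-Nd6 (761 CPM) and Aspg (63.1 CPM). In fl/fl sham 1 Mcm3 (10.3 CPM) and Slco1a1 (325 CPM) lay above the other fl/fl values. In iGKO sham 2 the injury markers Havcr1 (121.8 CPM) and Krt20 (33.4 CPM) lay above and Itga8 (10.7 CPM) below the other iGKO values, and in iGKO sham 1 Fasn (287 CPM) lay below them.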

How the results depend on the processing

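The count of genes called after sham was 0 in edgeR under every scaling and filter run, on all 16 libraries, with a replicate block and without each library in turn (lowest 0, highest 0), and differed by tool and by libraries. It was 3 in DESeq2, 1 in limma voom with quality weights, 34 in DESeq2 and 1 in limma voom without iGKO sham 4, and 7 in edgeR without fl/fl sham 2 and iGKO sham 4. Degs1 kept its direction under all 21 alternatives and passed only in DESeq2 without iGKO sham 4 (log2 -0.69, adjusted p = 0.00316, range 0.00316 to 1.00). The interaction count was 15 with no filter on low counts, 112 in DESeq2, 1 with the replicate block, and 0 to 776 with 1 library left out, 776 being without fl/fl IRI 1. With the replicate block on the sham comparison Degs1 was at -0.85 (adjusted p = 1.00 in edgeR). Same-numbered libraries correlated at 0.315, 0.058, 0.284 and -0.177 in their deviations, and libraries of different numbers at -0.408 to 0.376. Whether same-numbered samples share more than a number cannot be told from these values. The log2 value of Vill after sham was 0.009 in the main fit, so a small shift reversed it. Vill was at 188 CPM in iGKO sham 4, 67.6 to 78.6 CPM in the other iGKO libraries and 92.6 to 109.2 CPM in fl/fl. Its value was -0.0076 with upper-quartile scaling and -0.0013 with at least 10 counts in each library. It was -0.47 in limma voom with quality weights and -0.13 with the replicate block. In both DESeq2 and limma voom without iGKO sham 4 it was -0.46, and -0.51 in edgeR without fl/fl sham 2 and iGKO sham 4. The cause was not tested. With 1 library left out, Vill ranged from -0.46 to 0.16, Aspg from -0.43 to 0.11, Glyctk from -0.52 to 0.061 and Krt20 from -0.048 to 3.28. Of 1067 alternative values over 51 genes 1016 kept direction and side of the threshold, 31 passed the threshold only in the alternative and 20 reversed, and of 986 list medians 970 moved by less than their spread and 16 by more. With 4 libraries a side, differences within the spread of the libraries were not detectable.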
